A study of Homo sapiens with 4 samples.

Results

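The Fanconi anaemia and double-strand break repair genes studied here are 50 genes given by name, and all 50 were found among the 35767 gene rows of the count table. They were measured by RNA sequencing in SAS, an established human cell line that comes from a squamous carcinoma of the tongue. The groups are 2 libraries labelled siNAT10, from cells given an siRNA against the RNA acetyltransferase gene NAT10, and 2 libraries labelled siControl, from wild-type cells given a control siRNA. The genotype label of siNAT10 replicate 2 names NAT11 (another name of NAA40) in place of NAT10. The sample descriptions also carry the names KO_1 and KO_2 for the siNAT10 libraries and NC_1 and NC_2 for siControl. The titles call the libraries of a group biological replicates and name no separate cultures. The p-values set the difference between groups against the spread of these libraries within a group, estimated partly from all tested genes. Part or all of that spread may be technical.

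Cells repair a broken chromosome by joining the ends directly, which the Ku proteins start, or by copying an intact sister chromatid, which needs the ends to be trimmed and a recombinase to be loaded by BRCA2. The Fanconi pathway removes crosslinks between DNA strands by marking a clamp of FANCD2 and FANCI with ubiquitin and then calling on the recombination proteins. ATM and ATR, kinases that sense breaks and stalled forks, pass the signal to CHEK2 and CHEK1. Many recombination and checkpoint genes are expressed most in S and G2 phase.

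The mRNA of NAT10 was 253 and 248 CPM (counts scaled to a common TMM-adjusted library size) in the libraries labelled siNAT10, against 240.4 and 231 CPM in siControl. This difference was not called (log2 fold change 0.09 ± 0.06 SE, edgeR quasi-likelihood adjusted p = 0.293), so a lower NAT10 mRNA was not seen, which goes against the label. Every direction given here is that of the libraries as labelled. NAA40 was not called either (-0.15 ± 0.10, edgeR adjusted p = 0.255). Total counts were 35896415 and 30794757 in the libraries labelled siNAT10 and 36341785 and 36068532 in siControl. Of the squamous markers, KRT17 (543 and 586 CPM against 822 and 866 CPM) and SFN (263 and 267 CPM against 244 and 228 CPM) were abundant, while KRT5 and TP63 stayed below 1 CPM in all 4 libraries. Summed over each marker list, the squamous genes reached 814 and 861 CPM against 1080 and 1109 CPM, fibroblast genes 22.6 and 21.0 CPM against 27.7 and 29.8 CPM, and endothelial genes 3.35 and 3.76 CPM against 2.52 and 3.02 CPM. Within these lists KRT14 (1.97 and 1.86 CPM against 4.04 and 4.12 CPM), EPCAM (3.81 and 4.13 CPM against 7.41 and 8.35 CPM) and PECAM1 (0.289 and 0.136 CPM against 0.919 and 1.24 CPM) were lower, and VWF (1.13 and 0.881 CPM against 0.184 and 0.0539 CPM) was higher, all 4 called, as were the KRT17 and SFN values above and COL1A1 (21.5 and 20.1 CPM against 27.1 and 28.8 CPM). The fibroblast sum was nearly all COL1A1, while COL3A1, LUM and DCN stayed below 1 CPM in all 4 libraries. CDH5 (1.94 and 2.74 CPM against 1.42 and 1.72 CPM) and CDH1 (1.04 and 0.779 CPM against 1.26 and 1.29 CPM) were not called. The leukocyte sum, 51.3 and 52.3 CPM against 45.5 and 47.5 CPM, was nearly all CD68, 85.8% of whose exons overlap other rows, while PTPRC and CD79A were between 0 and 0.105 CPM. The part of these levels in the results was not tested, and in bulk RNA fewer cells of a kind and less RNA per cell cannot be told apart.

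The repair genes moved in both directions and by small amounts. With an adjusted p under 0.05 as the call, 16 of the 50 genes were higher and 8 were lower in the libraries labelled siNAT10, and 26 were not called. Of all 20098 genes tested, 40.4% were called, 19.7% higher and 20.7% lower, so the members' 48% was 24 genes against a background that was itself large. Among the 15179 tested genes within the members' range of expression, 47.3% were called. The median log2 fold change was 0.0050 over the members and -0.0079 over all tested genes. Only BLM and XRCC6 were called with a change of at least 1.5-fold, that is 2 of 50, whereas 18.6% of all tested genes were. The median size of the log2 fold change, regardless of sign, was 0.21 in the members and 0.28 in tested genes of the same expression range. For 36 of the 50 members (72%) the CPM ranges of the 2 groups were apart, as they were for 69.5% of all tested genes. Scaling by library totals in place of TMM, which put the median of all genes at -0.12, gave 10 higher and 16 lower. The 8 genes called lower under that scaling and not with TMM were FANCA, FANCE, BRCA2, XRCC3, RAD52, MRE11A, RBBP8 and MUS81, of which FANCE was also called without siControl replicate 1 (edgeR adjusted p = 6.37e-03). No called member changed direction in any of 12 alternative settings.

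**Figure D1:**
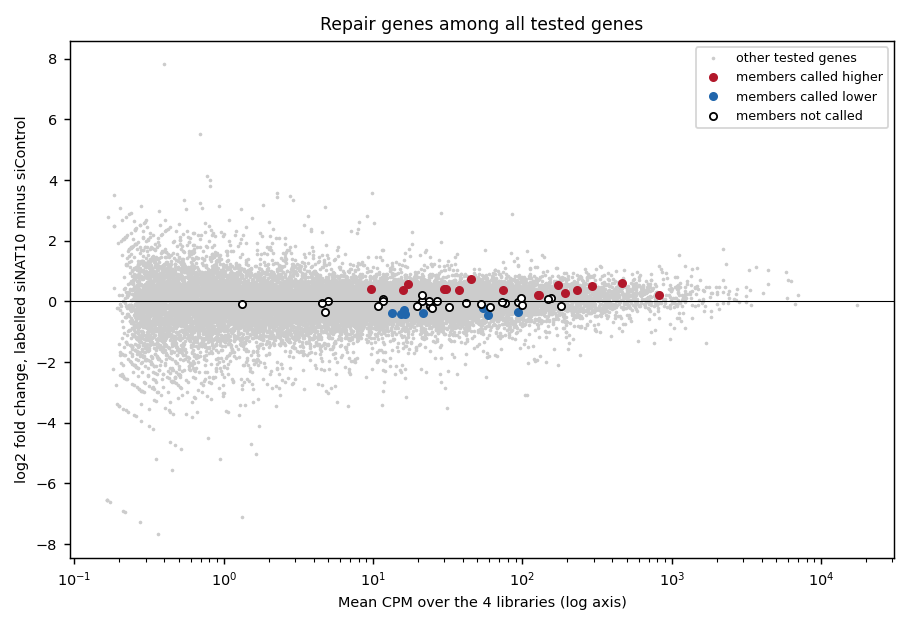
Log2 fold change (libraries labelled siNAT10 minus siControl) of each tested gene against its mean CPM over the 4 libraries, on a log axis. Grey dots are the other tested genes, and the 50 repair genes are drawn as filled circles where called (16 higher, 8 lower) and as open circles where not called (26), with log2 fold changes from -0.43 to 0.72.

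Promoters are shown for BLM and XRCC6, the members with the largest rise, and for FANCB and BRIP1, the members with the largest fall among genes whose exons overlap no other row. Each is the RefSeq sequence (GRCh38.p14) from 250 bases before to 50 bases after the start site, printed 5′ to 3′ on the strand of the gene. Capitals mark matches on either strand to an E2F motif (the form TTCCCGC, the form TTGGCGC, the form TTCGCGC or the form TTGCCGC), a CHR motif (the form TTTGAA or the form TTCGAA), the CCAAT box (the letters CCAAT) or a GC box (the letters GGGCGG), and an E2F match can overlap a GC box.
BLM (chr15:90717096-90717395, plus strand): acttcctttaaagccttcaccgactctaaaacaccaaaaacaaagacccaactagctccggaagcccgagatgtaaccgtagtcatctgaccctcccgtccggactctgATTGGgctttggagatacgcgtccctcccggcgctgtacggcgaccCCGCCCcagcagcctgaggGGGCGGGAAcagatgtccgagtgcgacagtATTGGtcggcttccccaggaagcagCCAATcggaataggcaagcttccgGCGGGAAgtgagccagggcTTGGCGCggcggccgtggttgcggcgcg
XRCC6 (chr22:41621045-41621344, plus strand): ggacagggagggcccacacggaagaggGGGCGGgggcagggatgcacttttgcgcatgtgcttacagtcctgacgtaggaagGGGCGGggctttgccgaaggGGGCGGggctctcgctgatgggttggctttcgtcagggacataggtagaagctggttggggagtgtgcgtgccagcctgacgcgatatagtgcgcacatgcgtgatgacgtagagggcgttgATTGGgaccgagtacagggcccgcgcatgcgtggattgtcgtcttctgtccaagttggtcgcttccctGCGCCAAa
FANCB (chrX:14873020-14873319, minus strand): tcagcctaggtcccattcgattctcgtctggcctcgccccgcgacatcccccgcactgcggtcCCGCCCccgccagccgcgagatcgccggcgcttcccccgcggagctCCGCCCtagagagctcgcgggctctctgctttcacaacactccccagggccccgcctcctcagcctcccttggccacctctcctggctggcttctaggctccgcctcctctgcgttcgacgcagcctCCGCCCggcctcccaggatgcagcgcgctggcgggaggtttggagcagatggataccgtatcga
BRIP1 (chr17:61863479-61863778, minus strand): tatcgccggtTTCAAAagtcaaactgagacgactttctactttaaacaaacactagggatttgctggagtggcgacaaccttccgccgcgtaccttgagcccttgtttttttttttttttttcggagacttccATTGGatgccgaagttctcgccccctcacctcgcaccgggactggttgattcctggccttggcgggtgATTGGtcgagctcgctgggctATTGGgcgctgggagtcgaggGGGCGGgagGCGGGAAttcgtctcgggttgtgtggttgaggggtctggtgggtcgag

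In these windows BLM had 3 E2F matches, 3 CCAAT boxes and 2 GC boxes, and XRCC6 had 1 E2F match, 1 CCAAT box and 3 GC boxes. FANCB had 3 GC boxes and no match to the other motifs, whereas BRIP1 had 3 CCAAT boxes and 1 match to each of the others. A promoter was found for 44 of the 50 members. Those without one were XRCC5, PRKDC, NBN and FANCI, all called higher, and WRN and RAD54B, not called. PRKDC, NBN, WRN and RAD54B lie on chromosome 8, whose genes were left out of the promoters shown. For each member the listed promoter nearest the start of the counted gene was taken, but for the set of tested genes the first one listed. For RBBP8 the promoter begins at 22933078, while the counted gene begins at 22798261. A CCAAT box was present in 9 of 12 promoters of members called higher, in 4 of 8 of members called lower and in 7 of 24 of members not called, compared with 34.6% of all 35116 promoters and 36.6% of those of 11036 tested genes matched by symbol. E2F matches were present in 7 of 12, 2 of 8 and 11 of 24 of the same promoters, so in 20 of 44 members (45.5%), compared with 13% of all promoters and 19.9% of those of tested genes. CHR matches were in 5 of 44 (11.4%, against 16.4% of all promoters and 11.2% of those of tested genes), and GC boxes were in 33 of 44 (75%, against 45% of all promoters and 68% of those of tested genes). These are counts of letters, with no test, and do not show that a factor binds there.

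The end joining genes held the most calls of any role, with 4 of 6 members higher and 1 lower, where 19.7% of all tested genes were called higher and 20.7% lower. XRCC6 (chromosome 22, 41621119 to 41664048, GRCh38), which encodes Ku70, had 565 and 554 CPM in the libraries labelled siNAT10, against 366 and 374 CPM in siControl. Both libraries labelled siNAT10 thus lay 1.51-fold above siControl on average (log2 fold change 0.60 ± 0.06, edgeR adjusted p = 2.88e-07). Its partner XRCC5 (chromosome 2, 216107464 to 216206303), which encodes Ku80, had 338 and 345 CPM against 246 and 239 CPM in siControl (log2 fold change 0.50 ± 0.06, edgeR adjusted p = 3.64e-06). Processed pseudogenes of XRCC6 are rows of their own in the table, and the most abundant, XRCC6P2, held between 34 and 66 counts a library. XRCC4, the scaffold of the ligase complex, had 19.2 and 21.5 CPM against 13.4 and 14.0 CPM in siControl (0.57 ± 0.10, edgeR adjusted p = 1.92e-04). All 3 were called under each of the 12 alternatives.

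The catalytic subunit and the ligase of the same pathway gave less stable calls. PRKDC, the kinase that Ku recruits, had 892 and 879 CPM in the libraries labelled siNAT10, against 811 and 708 CPM in siControl (log2 fold change 0.22 ± 0.07, edgeR adjusted p = 0.0148). Its rise was not called without siNAT10 replicate 1 (edgeR adjusted p = 0.0802), without siNAT10 replicate 2 (0.0685), without siControl replicate 2 (0.114) or with scaling by library totals (0.242). LIG4, the ligase that XRCC4 holds, fell, with 14.9 and 14.3 CPM against 17.3 and 18.0 CPM in siControl (-0.27 ± 0.10, edgeR adjusted p = 0.0400). That call too was lost without siNAT10 replicate 1 (edgeR adjusted p = 0.0882), without siNAT10 replicate 2 (0.187) and without siControl replicate 2 (0.131), and with DESeq2 (adjusted p = 0.133). NHEJ1, the end-bridging factor XLF, had 5.03 and 3.86 CPM against 4.36 and 4.96 CPM, and the row RP11-33O4.2 covers 65.4% of its exons.

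**Figure D2:**
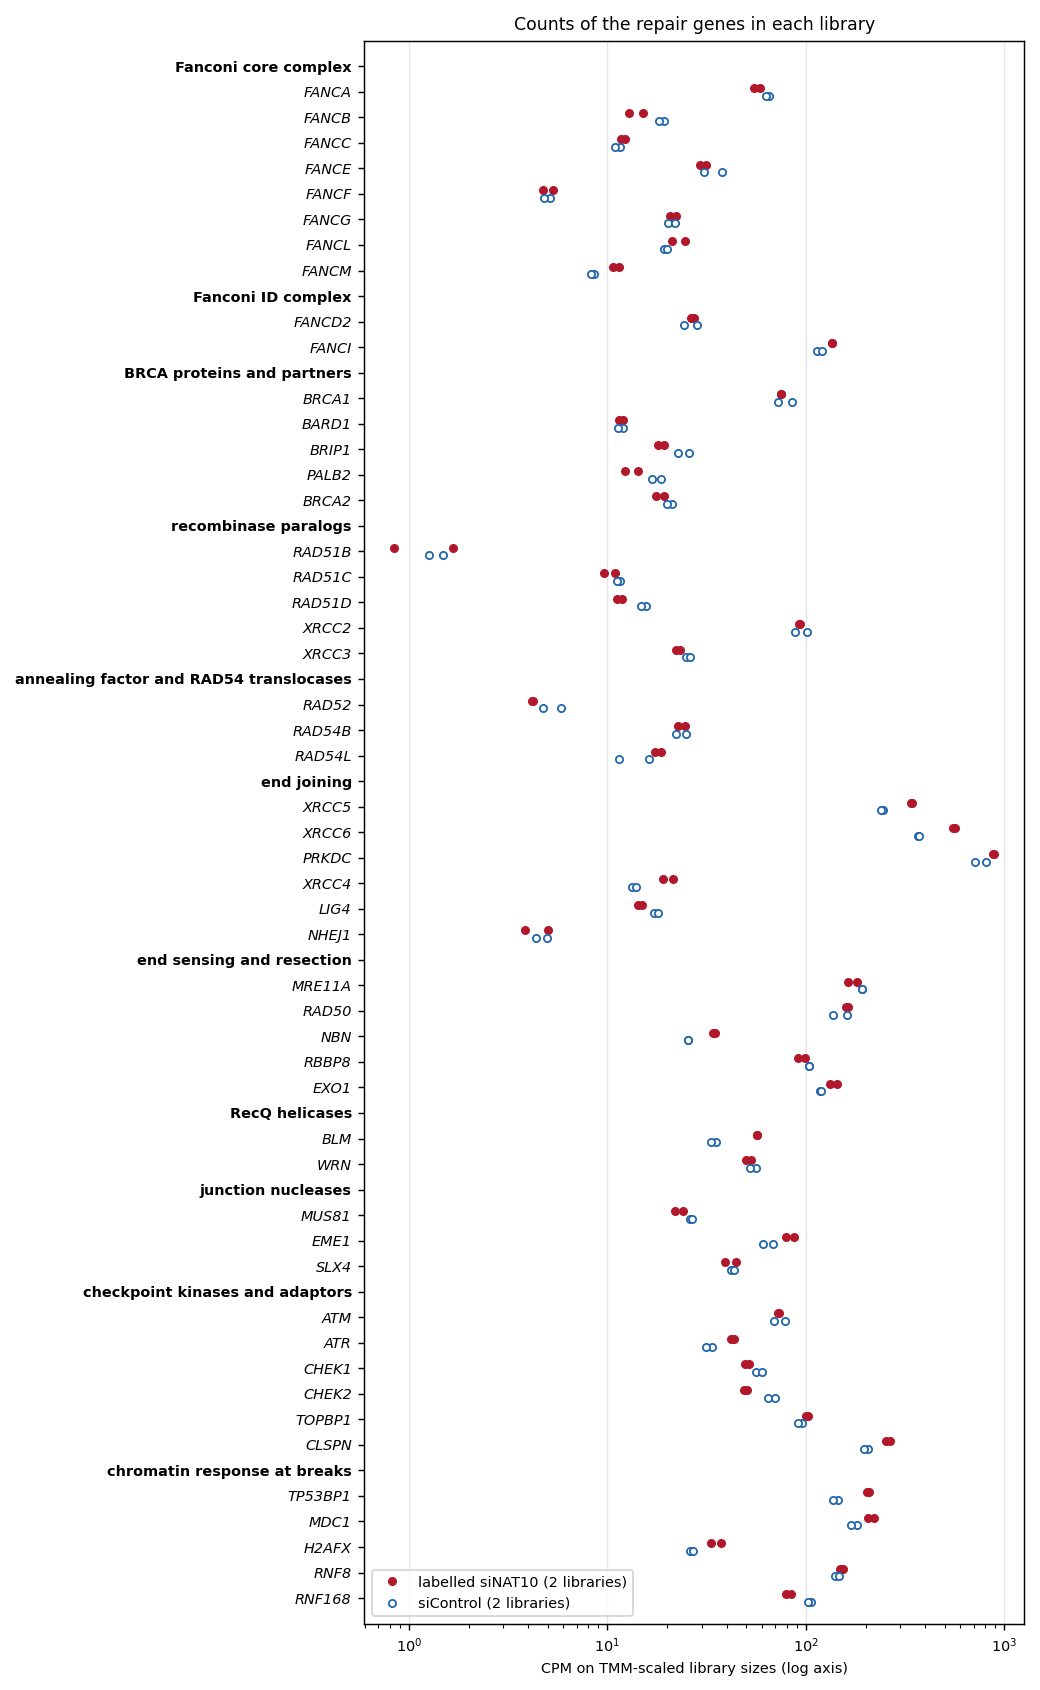
CPM of each of the 50 repair genes in each library, on a log axis, grouped by role. Filled red circles are the 2 libraries labelled siNAT10 and open blue circles the 2 siControl libraries; the circles of XRCC6, XRCC5, BLM and TP53BP1 stand clear of each other, while those of FANCD2, BRCA1 and ATM overlap.

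BLM carried the largest change of any member, and its relative WRN was not called. BLM (chromosome 15, 90717327 to 90816165), the RecQ helicase that dissolves recombination intermediates and is lost in Bloom syndrome, had 56.9 and 56.8 CPM in the libraries labelled siNAT10. In siControl it had 35.3 and 33.5 CPM, a 1.65-fold rise (log2 fold change 0.72 ± 0.08, edgeR adjusted p = 3.34e-07). WRN, the helicase lost in Werner syndrome, had 52.9 and 49.8 CPM against 56.0 and 52.1 CPM in siControl, and the groups overlapped (-0.07, 95% interval -0.231 to 0.0837). Among the nucleases that cut joined chromosomes, EME1 rose, with 87.0 and 79.7 CPM against 60.6 and 68.1 CPM in siControl (0.37 ± 0.08, edgeR adjusted p = 5.83e-04). LRRC59 on the opposite strand shares 16.4% of the EME1 exons and also rose (0.23 ± 0.07, edgeR adjusted p = 7.47e-03). MUS81, the catalytic partner of EME1, had 24.0 and 22.0 CPM against 26.1 and 26.8 CPM in siControl and was not called (-0.20 ± 0.09, edgeR adjusted p = 0.0856). It passed the threshold only with libraries scaled by their totals (-0.31, edgeR adjusted p = 9.55e-03). CFL1 on the opposite strand shares 13.9% of the MUS81 exons and rose (0.60 ± 0.06, edgeR adjusted p = 4.02e-07). Over the 4 libraries CFL1 held 35795 counts against 3471 for MUS81. SLX4, the scaffold of these nucleases, had 44.3 and 39.1 CPM against 42.0 and 43.5 CPM and was not called.

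Of the 5 genes of the chromatin response at breaks, TP53BP1, H2AFX and MDC1 rose, RNF168 fell and RNF8 was not called. Over all tested genes, 19.7% were called higher and 20.7% lower. TP53BP1, which shields ends from trimming, had 207 and 203 CPM in the libraries labelled siNAT10, against 146 and 136 CPM in siControl (log2 fold change 0.54 ± 0.07, edgeR adjusted p = 2.15e-06). TUBGCP4 on the opposite strand shares 28.7% of its exons at a lower level, 45.5 and 47.8 CPM against 34.0 and 33.3 CPM, and rose too (0.47 ± 0.08, edgeR adjusted p = 7.90e-05). H2AFX, the histone variant phosphorylated around breaks, rose with 33.5 and 37.3 CPM against 26.0 and 26.9 CPM (0.42 ± 0.09, edgeR adjusted p = 7.22e-04). MDC1, which reads that phosphorylation, had 206 and 221 CPM against 182 and 169 CPM in siControl (0.28 ± 0.07, edgeR adjusted p = 2.51e-03). The MDC1 call was lost with libraries scaled by their totals (edgeR adjusted p = 0.0571) and without siNAT10 replicate 2 (0.0686), and MDC1-AS1 overlaps 8.69% of its exons. Nearly all of MDC1-AS1 lies within MDC1, with 8669 counts over the 4 libraries against 26861 for MDC1, and it rose too (0.44 ± 0.07, edgeR adjusted p = 5.60e-05). RNF168, the ubiquitin ligase that prepares chromatin for TP53BP1, fell, with 83.8 and 79.6 CPM against 107 and 103 CPM in siControl (-0.36 ± 0.07, edgeR adjusted p = 3.06e-04). RNF8, which acts before it, had 149 and 153 CPM against 140 and 148 CPM and was not called (0.07 ± 0.07, edgeR adjusted p = 0.393).

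Of the 6 checkpoint kinases and adaptors, ATR and CLSPN rose while CHEK1 and CHEK2 fell, where 19.7% of all tested genes were called higher and 20.7% lower. ATR had 43.5 and 41.9 CPM in the libraries labelled siNAT10, against 33.5 and 31.5 CPM in siControl (log2 fold change 0.39 ± 0.08, edgeR adjusted p = 6.09e-04). The antisense row RP11-383G6.4, which lies within its exons, held 117 counts over the 4 libraries, against 5189 for ATR. CLSPN, the adaptor through which ATR activates CHEK1, had 267 and 253 CPM against 206 and 196 CPM in siControl (0.37 ± 0.07, edgeR adjusted p = 1.36e-04). CHEK2 fell 1.35-fold, with 49.1 and 50.9 CPM against 64.8 and 70.3 CPM in siControl (-0.43 ± 0.07, edgeR adjusted p = 9.56e-05), the largest fall of any member. CHEK1 had 51.5 and 49.7 CPM against 56.2 and 60.4 CPM (-0.20 ± 0.07, edgeR adjusted p = 0.0337). Its call was lost without siNAT10 replicate 1 (edgeR adjusted p = 0.0940), without siNAT10 replicate 2 (0.204) and without siControl replicate 2 (0.163), and with DESeq2 (adjusted p = 0.0913). ATM had 72.9 and 72.1 CPM, inside the siControl values of 78.2 and 69.2 CPM, with a 95% interval of the log2 fold change from -0.178 to 0.131. TOPBP1, an activator of ATR, was not called (0.12 ± 0.07, edgeR adjusted p = 0.181).

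Of the genes for end sensing and resection, 2 of 5 rose, where 19.7% of all tested genes were called higher and 20.7% lower. NBN, the subunit of the MRE11A, RAD50 and NBN complex that recruits ATM, had 34.0 and 34.7 CPM in the libraries labelled siNAT10, against 25.5 and 25.6 CPM in siControl (log2 fold change 0.42 ± 0.08, edgeR adjusted p = 4.66e-04). EXO1, the exonuclease of long-range trimming, had 133 and 143 CPM against 118 and 119 CPM (0.22 ± 0.07, edgeR adjusted p = 0.0143), a call lost without siNAT10 replicate 2 (edgeR adjusted p = 0.212) and with scaling by library totals (0.225). The nuclease gene MRE11A had 180 and 163 CPM against 191 CPM in each siControl library and was not called (-0.15 ± 0.07, edgeR adjusted p = 0.0781). RAD50 (0.10 ± 0.07, called at 0.22 without siControl replicate 1, edgeR adjusted p = 5.78e-03) and RBBP8, which encodes the nuclease cofactor CtIP (-0.12 ± 0.07), were not called either.

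**Figure D3:**
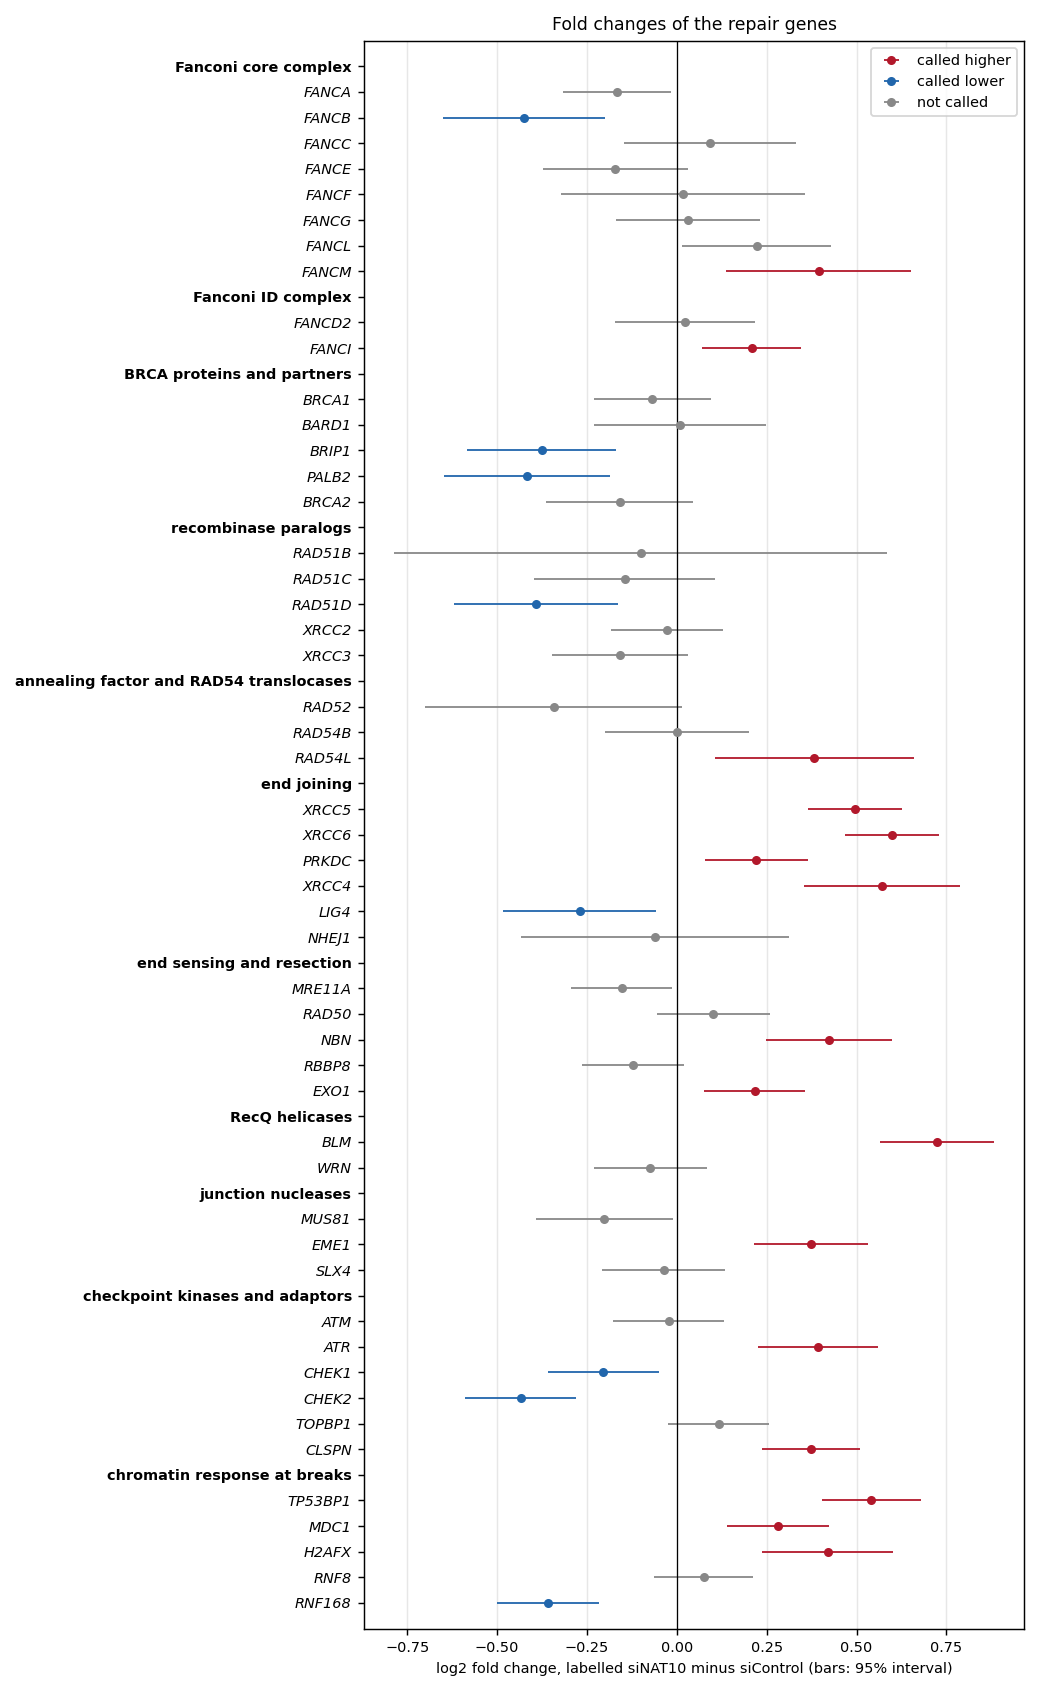
Log2 fold change of each of the 50 repair genes, libraries labelled siNAT10 minus siControl, with its 95% interval, grouped by role. Red marks the 16 genes called higher, blue the 8 called lower and grey the 26 not called; the values run from -0.43 for CHEK2 to 0.72 for BLM.

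Of the Fanconi core complex and clamp genes, FANCM and FANCI rose and FANCB fell. In the core complex, 1 of 8 members rose, 1 fell and 6 were not called, where 40.4% of all tested genes were called. FANCB, the X-linked core subunit, had 15.1 and 12.8 CPM in the libraries labelled siNAT10, against 19.4 and 18.3 CPM in siControl (log2 fold change -0.43 ± 0.11, edgeR adjusted p = 3.64e-03). The FANCB call was lost without siNAT10 replicate 2 (-0.31, edgeR adjusted p = 0.0701). FANCM, the translocase that brings the complex to a stalled fork, had 10.7 and 11.4 CPM against 8.53 and 8.24 CPM (0.39 ± 0.12, edgeR adjusted p = 0.0145), and lost its call without siNAT10 replicate 2 (0.0927), without siControl replicate 2 (0.0521), with scaling by library totals (0.0729) and with DESeq2 (0.0534). The ubiquitin ligase gene FANCL (0.22 ± 0.10, edgeR adjusted p = 0.0814) and FANCA (-0.17 ± 0.07, edgeR adjusted p = 0.0717) came nearest to the threshold among the others, and VRK2 and ZNF276 share 18.7% and 23.6% of their exons. ZNF276, with 10181 counts over the 4 libraries against 8459 for FANCA, fell (-0.48 ± 0.08, edgeR adjusted p = 7.21e-05), and VRK2 was not called. FANCL was called without siNAT10 replicate 1 (0.33, edgeR adjusted p = 0.0335). The core subunit genes FANCC, FANCE, FANCF and FANCG had log2 fold changes from -0.17 to 0.09.

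In the clamp that the core complex modifies, FANCI rose slightly, with 135 and 136 CPM against 114 and 120.4 CPM in siControl (log2 fold change 0.21 ± 0.07, edgeR adjusted p = 0.0162). Without siNAT10 replicate 1 and without siNAT10 replicate 2 this was not called (edgeR adjusted p = 0.0800 and 0.115), nor with scaling by library totals (0.251). POLG on the opposite strand shares 5.90% of the FANCI exons and rose (0.50 ± 0.07, edgeR adjusted p = 5.56e-06). FANCD2 had 26.5 and 27.2 CPM, between the siControl values of 28.4 and 24.5 CPM, and the 95% interval of its log2 fold change ran from -0.173 to 0.218.

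BRCA1 and BRCA2 themselves were not called, while partners of each fell. BRCA1 had 75.2 and 74.7 CPM in the libraries labelled siNAT10, within the siControl values of 84.8 and 72.3 CPM (log2 fold change -0.07 ± 0.08, 95% interval -0.23 to 0.0943). BARD1, with which BRCA1 forms a ubiquitin ligase, was at 11.5 and 12.0 CPM against 12.0 and 11.3 CPM. BRIP1, the helicase that binds BRCA1, fell, with 17.9 and 19.4 CPM against 25.8 and 22.6 CPM in siControl (-0.38 ± 0.10, edgeR adjusted p = 4.92e-03). PALB2, the bridge between BRCA1 and BRCA2, fell with 12.3 and 14.3 CPM against 18.6 and 16.8 CPM (-0.42 ± 0.11, edgeR adjusted p = 5.27e-03). Both calls were lost without siNAT10 replicate 1, where the edgeR adjusted p was 0.0515 for BRIP1 and 0.0900 for PALB2. BRCA2 had 17.6 and 19.4 CPM against 21.2 and 20.0 CPM in siControl (-0.16 ± 0.10, 95% interval -0.364 to 0.0462, edgeR adjusted p = 0.212).

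Among the recombinase paralogs, which stabilise the recombinase filament, 1 of 5 was called, where 40.4% of all tested genes were. RAD51D fell, with 11.8 and 11.2 CPM in the libraries labelled siNAT10, against 15.6 and 14.7 CPM in siControl (log2 fold change -0.39 ± 0.11, edgeR adjusted p = 7.08e-03). The RAD51D call was lost without siNAT10 replicate 2 (edgeR adjusted p = 0.0528). RAD51C, XRCC2 and XRCC3 had log2 fold changes of -0.15, -0.03 and -0.16, and KLC1 on the opposite strand covers 76.7% of the XRCC3 exons. KLC1 held 24840 counts over the 4 libraries against 3366 for XRCC3, and rose (0.18 ± 0.06, edgeR adjusted p = 0.0316). RAD51B was the least abundant member, at 1.68 and 0.847 CPM against 1.26 and 1.48 CPM, and the 95% interval of its log2 fold change, -0.786 to 0.586, was the widest of the members.

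Of the remaining recombination genes, RAD54L, a translocase that remodels the recombinase filament, rose, with 18.6 and 17.4 CPM against 16.2 and 11.5 CPM in siControl (log2 fold change 0.38 ± 0.13, edgeR adjusted p = 0.0269). This rested on siControl replicate 2, without which it was 0.16 (edgeR adjusted p = 0.358), and it was also lost without siNAT10 replicate 1 (0.0999), with scaling by library totals (0.116) and with DESeq2 (0.0583). LRRC41 shares 25.1% of the RAD54L exons and was not called. RAD54B was at 24.6 and 22.7 CPM against 25.0 and 22.3 CPM, with the FSBP row covering 51.3% of its exons. RAD52, the annealing factor, was at 4.16 and 4.20 CPM against 5.86 and 4.74 CPM (-0.34 ± 0.17, edgeR adjusted p = 0.120).

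Per kilobase of exon, 3 of the 6 end joining genes stood highest among the members. XRCC6 had 170 CPM per kb in the libraries labelled siNAT10 and 112 CPM per kb in siControl, first in both groups. XRCC5 and PRKDC followed with 62.5 and 57.4 CPM per kb in the libraries labelled siNAT10, and with 44.3 and 49.3 CPM per kb in siControl, so their order changed. CLSPN and EXO1 came next in both groups. The other end joining genes were lower, with 7.61 against 5.12 CPM per kb for XRCC4, 3.33 against 4.02 CPM per kb for LIG4 and 1.430 against 1.498 CPM per kb for NHEJ1. The recombination genes spread widely, with 19.2 against 19.6 CPM per kb for XRCC2, 1.51 against 1.68 CPM per kb for BRCA2, 1.02 against 1.34 CPM per kb for RAD51D and 0.169 against 0.183 CPM per kb for RAD51B.

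Ratios between partners of 1 complex, taken within a library, do not depend on how libraries are scaled. For 11 such ratios, chosen with the fold changes known, counts per kb were divided. The ratio of XRCC4 to LIG4 was 2.10 and 2.48 in the libraries labelled siNAT10, against 1.27 and 1.28 in siControl, a log2 change of 0.84 that was the largest of the 11. EME1 over MUS81 was 6.02 and 6.03 against 3.86 and 4.22 in siControl, and each of these genes shares exons with a more abundant row that rose. NBN over MRE11A was 0.235 and 0.266 against 0.167 and 0.168. The ratio of XRCC6 to XRCC5 differed less, at 2.78 and 2.67 against 2.47 and 2.60. PRKDC over XRCC6 was lower, at 0.337 and 0.338 against 0.473 and 0.404, and RAD51D over XRCC2 was lower too, at 0.0546 and 0.0517 against 0.0658 and 0.0717. In 9 of the 11 the groups did not overlap, which is a description of ratios chosen with the values known. For single genes, the CPM ranges of the groups were apart in 69.5% of all tested genes. An exact two-sided permutation test over 2 against 2 libraries cannot give a p below 0.333, which these 9 reached (0.407 adjusted over the 11). BRCA1 over BARD1 and RAD51C over XRCC3 overlapped between groups (exact permutation p = 0.667). XRCC3 shares 76.7% of its exons with KLC1, a more abundant row that rose.

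**Figure D4:**
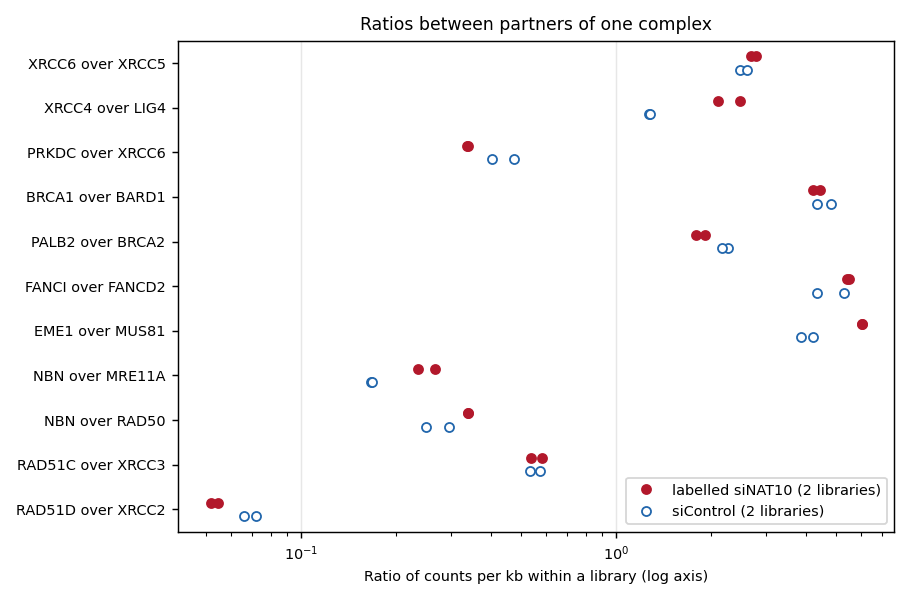
Ratio of counts per kb between partners of 1 complex in each library, on a log axis. Filled red circles are the libraries labelled siNAT10 and open blue circles siControl; the largest distance is that of XRCC4 over LIG4 (2.10 and 2.48 against 1.27 and 1.28), and the groups overlap for BRCA1 over BARD1 and RAD51C over XRCC3.

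A wider list of 62 other repair genes, all of them tested, had 15 members higher and 6 lower, which is 33.9% called against 40.4% of all tested genes, with a median log2 fold change of 0.07. PARP1, the polymerase that marks strand breaks with poly(ADP-ribose), had 820 and 849 CPM in the libraries labelled siNAT10, against 519 and 516 CPM in siControl (0.69 ± 0.06, edgeR adjusted p = 4.43e-08). LIG3, a ligase of alternative end joining, had 94.6 and 95.8 CPM against 64.1 and 59.0 CPM (0.63 ± 0.07, edgeR adjusted p = 7.84e-07), with RFFL sharing 29.1% of its exons. TIPIN, a fork protection factor, rose by 0.66 ± 0.11 on the log2 scale (edgeR adjusted p = 6.37e-05). ERCC1, a subunit of the nuclease that cuts at crosslinks, had 203 and 208 CPM against 75.7 and 74.2 CPM (1.45 ± 0.07, edgeR adjusted p = 3.65e-12). CD3EAP shares 28.6% of the ERCC1 exons at a like level and rose alike (1.53 ± 0.07), so the 2 signals cannot be told apart. The largest called falls with at least 2 CPM were those of ZSWIM7, POLL, PSMC3IP and RPA1. ZSWIM7, a partner of the recombinase paralogs, fell by -0.66 ± 0.14 (edgeR adjusted p = 8.89e-04), and the polymerase gene POLL by -0.37 ± 0.12 (0.0217). The recombination cofactor gene PSMC3IP fell by -0.37 ± 0.07 (edgeR adjusted p = 3.22e-04). RPA1, a subunit of the single-strand binding protein, fell by -0.21 ± 0.07 (edgeR adjusted p = 0.0292). TTC19 shares 8.40% of the ZSWIM7 exons, with 3315 counts over the 4 libraries against 959, and fell too (-0.33 ± 0.10, edgeR adjusted p = 9.21e-03). MLX shares 29.9% of the PSMC3IP exons and was not called. The POLL call was lost without siNAT10 replicate 2 (edgeR adjusted p = 0.123), without siControl replicate 2 (0.114) and with DESeq2 (0.0873). That of RPA1 was lost without siNAT10 replicate 1 (edgeR adjusted p = 0.328), without siControl replicate 2 (0.0762) and with DESeq2 (0.0808). By role, 4 of 11 end joining partners were higher and 2 lower, 4 of 20 recombination partners were higher and 3 lower, 4 of 13 Fanconi partners were higher and 1 lower, and 3 of 18 signalling partners were higher and none lower.

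Lists of cell cycle and p53 genes are given beside these values, against 19.7% of all tested genes called higher and 20.7% called lower. Of 20 genes of G2 and mitosis, 17 were higher and none lower in the libraries labelled siNAT10 (median log2 fold change 0.55), led by CDC20 (1.10 ± 0.09) and BUB1 (0.96 ± 0.07). Of 20 S phase genes, 6 were higher and 4 lower (median -0.02), with RRM1 (0.52 ± 0.06) and RRM2 (0.35 ± 0.07) changing most. Of 12 targets of p53, 7 were lower and 2 higher (median -0.43), among them CDKN1A (-1.35 ± 0.10) and BBC3 (-1.19 ± 0.13). The largest edgeR adjusted p among these 6 genes was 4.11e-04. The part of the cell cycle in the changes of the repair genes was not tested.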

How the data were processed

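RNA sequencing of 2 libraries labelled siNAT10 and 2 siControl libraries of SAS cells was analysed, grouped by the sample titles. The authors deposited unnormalized counts per gene, made with fastp 0.23.4, STAR 2.5.3a and featureCounts on GRCh38, per the submitters' processing notes. The sources used here do not give the annotation release, the strand setting or any use of molecular identifiers. Between 72.0% and 73.5% of counts from 1 to 50 were even, as when both mates of a pair are counted. Rows with overlapping exons can hold the same reads. Of the 50 members, 29 overlap another row and 21 do not. Among the 21, 9 were higher and 3 lower (57.1% called). Among the 29, 7 were higher and 5 lower (41.4% called), where 40.4% of all tested genes were called.

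With R 4.3.3, edgeR 4.0.16 fitted the counts by quasi-likelihood (filterByExpr, TMM, robust, group only, 2 residual degrees of freedom, two-sided). Benjamini-Hochberg adjustment ran over 20098 genes. The procedure was tested on simulated data. Log2 fold changes put siNAT10 over siControl, and ± gives their standard error. A count of 3 corresponds to 0.0788 to 0.102 CPM. Intervals (95%) hold the variation among these libraries and of counting, without PCR copies. DESeq2 1.42.0 and limma 3.58.1 were alternatives. Members and lists were chosen with earlier results of these data known. All members are named. Of the wider list, the 4 largest rises and 4 largest falls among called genes with at least 2 CPM are named, and of the cell cycle and p53 lists the 2 largest changes.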

Additional observations from a re-analysis of the deposited data

How the results depend on the processing

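Of the 24 called members, 12 kept their call in all 12 alternatives and 12 lost it in at least 1, while 10 uncalled members were called in at least 1. With scaling by library totals alone, 10 members were higher and 16 lower, with a median log2 fold change of -0.11 where all tested genes had -0.12, and 15 wider repair genes were lower. Over the whole table that scaling called 2688 genes higher and 5604 lower, against 3951 and 4169. With DESeq2, 3 wider repair genes were lower. Scaling by totals leaves out the TMM factors, which were 0.965 and 0.959 in the libraries labelled siNAT10 and 1.049 and 1.03 in siControl. What lies behind these factors was not tested, nor was the cause of the shift with DESeq2. Leaving out 1 library at a time lost up to 9 called members (without siNAT10 replicate 2) and gave 11 to 17 members higher and 4 to 9 lower, with 4 lower without siNAT10 replicate 1 and 4 without siNAT10 replicate 2, and between 6128 and 7795 genes called in all. A group left with 1 library is assumed to vary like the other. The replicate block called 16 members higher and 8 lower, with no member lost or gained, and 8254 genes in all. The titles do not say what a replicate number shares, and same-numbered libraries did not deviate together (correlation -0.0189 over tested genes). RLE scaling, no filter, the 50-count filter, limma-voom and halved counts left 16 members higher and 8 lower. Depth limits the low members, and the wide interval of RAD51B goes with siNAT10 libraries at 1.68 and 0.847 CPM. Halving the counts lost and gained no member. It divides each count and rounds, which adds no sampling noise, so it cannot show what a lower depth would do.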
